A study of Mus musculus with 16 samples.

Results

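The 12 ATAC-Seq libraries of hi-77-/- cells were compared as 1 set with the 4 libraries of hi-77+/+ cells, to find chromatin differences that persisted whichever vector the hi-77-/- cells received. ATAC-Seq marks accessible chromatin by transposase insertion, and a peak is a stretch where insertions pile up. Both lines are mouse hematopoietic progenitors taken from fetal liver and immortalized with HoxB8 under estrogen control. hi-77-/- cells lack on both alleles the distal Gata2 enhancer that gives the lines their name, and hi-77+/+ cells retain it. All cells were infected with a retrovirus for 3 d and GFP+ cells were isolated by FACS. hi-77+/+ cells carried the empty vector in 4 libraries (hi-77+/+ empty). hi-77-/- cells carried the empty vector in 4 libraries (hi-77-/- empty), GATA2 in 4 (GATA2), or 9aa-Ins, a GATA2 variant with an insertion between its zinc fingers, in 4 (9aa-Ins). The labels name no second line of either genotype, so the deletion, the cell line and everything else that sets the lines apart cannot be told apart here.

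From each library the 49000 most significant peaks on chromosomes 1 to 19 and X were kept, and overlapping peaks of the 16 libraries were merged into 90376 regions. A region was called gained when it had a peak in 12 of 12 hi-77-/- libraries and in 0 of 4 hi-77+/+ libraries, and lost when it had a peak in 0 of 12 and in 4 of 4. There were 756 gained regions (0.837% of all regions) and 915 lost regions (1.01%), together 1671 (1.85%). These shares are the background against which every share below is set. The fold enrichment of a peak is the pileup at its summit over the background of the same library, and its rank is its place among the 49000 peaks, with 1 the most significant.

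The deleted enhancer drives Gata2 in progenitors, and loss of GATA2 shifts the balance between myeloid, erythroid and lymphoid gene programs. Accessible chromatin is also set by features that differ between individual embryos, among them sex. In female cells, one X chromosome is silenced by the noncoding RNA Xist, and tandem repeats such as Firre and Dxz4 bind the insulator protein CTCF on the inactive X. Male cells have a Y chromosome and a single X that remains active.

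The following sequences are shown because they lie in the clearest group of gained regions, the tandem repeats of the X chromosome, and in gained or lost regions discussed further on. Each was read from GRCm38 around the summits of its region. For 4933407K13Rik, the gene model at Dxz4, all 12 gained windows, each reaching 100 bases to either side of a summit, held the same run of 18 bases, which is in capitals in 4 of them, all on the minus strand (chrX:75735041-75735118, chrX:75744616-75744693, chrX:75745613-75745690 and chrX:75749469-75749546).
4933407K13Rik window 1: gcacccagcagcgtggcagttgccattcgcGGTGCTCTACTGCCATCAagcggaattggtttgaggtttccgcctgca
4933407K13Rik window 2: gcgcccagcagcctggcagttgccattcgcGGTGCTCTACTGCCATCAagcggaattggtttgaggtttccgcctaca
4933407K13Rik window 3: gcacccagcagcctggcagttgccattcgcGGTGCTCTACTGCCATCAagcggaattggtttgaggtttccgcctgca
4933407K13Rik window 4: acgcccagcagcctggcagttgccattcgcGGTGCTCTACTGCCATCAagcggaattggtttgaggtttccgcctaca

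Of the 16 gained windows in Firre, 5 shared a run of 21 bases, in capitals in 3 of them on the minus strand (chrX:50602968-50603036, chrX:50612301-50612360 and chrX:50614943-50615023).
Firre window 1: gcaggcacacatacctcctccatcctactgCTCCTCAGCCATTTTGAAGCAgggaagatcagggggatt
Firre window 2: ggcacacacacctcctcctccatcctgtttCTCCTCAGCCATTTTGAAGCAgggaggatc
Firre window 3: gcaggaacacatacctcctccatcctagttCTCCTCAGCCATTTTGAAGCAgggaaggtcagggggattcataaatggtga

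Windows from elsewhere are given on the plus strand with short motifs in capitals, which are the CTCF consensus at the 5′ end of Xist (chrX:103481724-103481864), RUNX words in the intergenic region nearest Map3k1 (chr13:112001177-112001337), ETS words in the intergenic region upstream of Id2 (chr12:25119441-25119593), and a GATA and an ETS word in a region upstream of Tgfbr2 (chr9:116338401-116338531). The last window is from a lost intergenic region with a CTCF consensus (chr5:129059244-129059364, nearest Adgrd1), chosen after its values were seen. It need not be the best ranked of all such regions.
Xist 5' end: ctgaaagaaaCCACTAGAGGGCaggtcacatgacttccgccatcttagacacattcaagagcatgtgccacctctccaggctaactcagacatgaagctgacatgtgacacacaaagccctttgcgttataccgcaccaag
Map3k1 region: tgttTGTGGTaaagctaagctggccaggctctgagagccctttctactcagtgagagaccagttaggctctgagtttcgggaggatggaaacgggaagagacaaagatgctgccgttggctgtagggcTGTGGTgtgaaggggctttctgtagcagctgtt
Id2 region: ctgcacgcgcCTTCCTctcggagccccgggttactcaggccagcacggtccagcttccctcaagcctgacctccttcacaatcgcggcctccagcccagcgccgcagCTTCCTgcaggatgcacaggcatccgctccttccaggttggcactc
Tgfbr2 region: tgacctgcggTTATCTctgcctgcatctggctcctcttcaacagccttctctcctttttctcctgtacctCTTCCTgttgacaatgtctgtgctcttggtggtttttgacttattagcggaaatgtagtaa
Adgrd1 region: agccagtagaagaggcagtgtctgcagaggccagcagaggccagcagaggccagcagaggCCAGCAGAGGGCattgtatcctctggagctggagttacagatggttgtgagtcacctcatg

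Deposited lists held 50195 to 112267 peaks per library, with no read totals, so the depth of each library is unknown. GATA2 replicate 1 had the shortest list and needed the weakest peaks to reach 49000, down to a fold of 4.23, against 4.90 to 7.57 in the other 15 libraries. Promoters of all 10 progenitor markers, such as Ptprc, Cd34, Kit and Spi1, had a peak in all 16 libraries. Erythroid promoters had a peak at 2 to 5 of 6 markers in hi-77+/+ libraries and 0 to 4 in hi-77-/- libraries, B cell promoters at 2 to 4 and 1 to 4 of 5, macrophage promoters at 1 to 2 of 5 in both, T cell promoters at 1 of 5 in both, hepatocyte promoters at 1 and 1 to 2 of 6, endothelial promoters at 1 and 1 to 3 of 4, and fibroblast promoters at 2 to 3 and 1 to 2 of 4. Their part in the results was not tested. Upstream of Gata2, chr6:88116444-88116727 was covered by a peak in every complete hi-77+/+ list and in no complete hi-77-/- list. The merged region around it reached into a neighboring peak and had a peak in 3 of 12 hi-77-/- libraries, so it was not among the lost regions. Shorter stretches nearby had the same pattern, at chr6:88114569-88114693, chr6:88117581-88117639 and chr6:88124399-88124470. The last lies in a region with a peak in all 12 hi-77-/- libraries, so the pattern alone does not mark the deletion. The labels give no coordinates of the deletion, and which stretch belongs to it was not tested.

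Taken 1 at a time against hi-77+/+ empty, each vector group of hi-77-/- cells gave more changes than all 12 libraries did. hi-77-/- empty gave 3241 gained and 1898 lost regions, GATA2 gave 2433 and 2021, and 9aa-Ins gave 5037 and 2178. These comparisons share the 4 hi-77+/+ libraries. Regions in all 12 made up 23.3%, 31.1% and 15.01% of the gained and 48.2%, 45.3% and 42.0% of the lost regions of hi-77-/- empty, GATA2 and 9aa-Ins. Just outside the rule lay 458 regions with a peak in 11 of 12 hi-77-/- and 0 of 4 hi-77+/+ libraries, and 500 with a peak in 12 of 12 and 1 of 4. On the side of loss, 611 regions had a peak in 1 of 12 and 4 of 4, and 1197 in 0 of 12 and 3 of 4.

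**Figure D1:**
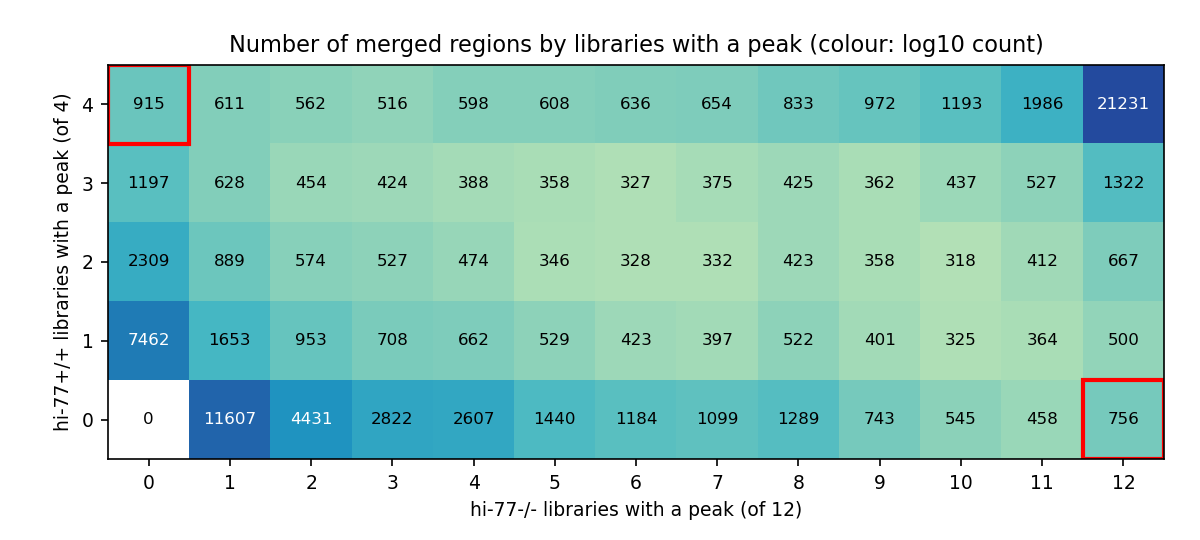
Number of merged regions by the number of hi-77-/- libraries (horizontal axis, of 12) and hi-77+/+ libraries (vertical axis, of 4) with a peak among the 49000 kept. The red frames mark the 756 gained and 915 lost regions, and the largest cell is the 21231 regions with a peak in all 16 libraries.

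Absence from the 49000 strongest peaks is not absence of any peak. In the complete lists, 33.1% to 60.6% of the gained regions had a peak in a given hi-77+/+ library, with a median of 45.2%. Only 185 gained regions (24.5%) had no peak in any complete hi-77+/+ list, and 155 lost regions (16.9%) had none in any complete hi-77-/- list. The lost regions had a peak in the complete lists of 9.95% to 21.7% in hi-77-/- empty, 0.328% to 19.1% in GATA2 and 9.40% to 68.4% in 9aa-Ins, where the lists of replicates 1 and 2 held 108020 and 104581 peaks. Most gained and lost regions thus had a weaker peak in at least 1 library of the other genotype.

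The X chromosome held 43 gained regions, 2.59% of its 1660 regions and the highest share of any chromosome. Of these, 16 lay in Firre and 12 in 4933407K13Rik, which is 28 of the 38 regions in both genes. Outside them, 15 of 1622 X regions were gained (0.925%), near the background of 0.837%. Firre is a long noncoding RNA gene built of repeats, 4933407K13Rik lies at the macrosatellite Dxz4, and both are landmarks in the folding of the inactive X.

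In the complete lists, Firre held 1 peak in hi-77+/+ empty replicates 1 and 2 and 0 in replicates 3 and 4, against 23 to 32 (median 26.5) in the 12 hi-77-/- libraries. 4933407K13Rik held 2, 3, 1 and 3 peaks in the 4 hi-77+/+ libraries and 16 to 30 (median 23.5) in hi-77-/- libraries. The groups did not overlap at either gene, and 26 of the 28 gained regions there had no peak in any complete hi-77+/+ list, a share of 92.9% against 24.5% of all gained regions. The authors kept uniquely mapped reads, so repeat copies that cannot be told apart are not represented in these counts.

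A further 3 gained regions lay in the X inactivation center. The first, chrX:103481272-103482417, covers the 5′ end of Xist. Its fold was 13.8 to 31.7 (median 22.1) in the 12 hi-77-/- libraries, and no complete hi-77+/+ list had a peak there. Its window held the only exact CTCF consensus among the 43 gained X regions, shown in capitals above. Sites that depart from the consensus, in the repeats or elsewhere, were not counted. The second lay close by in Tsix, the antisense partner of Xist, and the third in an intron of Ftx, an activator of Xist (chrX:103616618-103617582, fold 17.99 to 39.1, median 30.8). Both lacked a peak in every complete hi-77+/+ list. Promoters of Jpx, Ftx and Rlim, which also act in X inactivation, had a peak in all 16 libraries.

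Y-linked promoters showed the opposite pattern, outside the chromosomes used for calling. Uty, Ddx3y and Eif2s3y, which have X-linked partners, had a promoter peak in 4 of 4 complete hi-77+/+ lists and in 0 of 12 hi-77-/- lists, and Kdm5d in 3 of 4 and 0 of 12. Promoters of their partners Kdm6a, Ddx3x, Eif2s3x and Kdm5c had a peak in all 16. The complete lists held 195, 227, 165 and 165 Y peaks in hi-77+/+ replicates 1 to 4 and 73 to 142 (median 102.5) in hi-77-/- libraries, a difference of -79.8 (two-sided exact permutation test, p = 0.000549, adjusted p = 0.00137, the smallest p possible being 0.000549). The labels give no sex for either line, so sex, line and deletion cannot be told apart, and the Y peaks in hi-77-/- libraries were not traced to a source. On X as a whole the level at shared regions did not pass the test (difference -0.02 on the log2 scale, exact permutation test, adjusted p = 0.238). The share of the 49000 peaks that lay on X was higher in hi-77-/- libraries, by 0.28 percentage points (exact permutation test, adjusted p = 0.00366), so the direction on X depended on the measure.

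**Figure D2:**
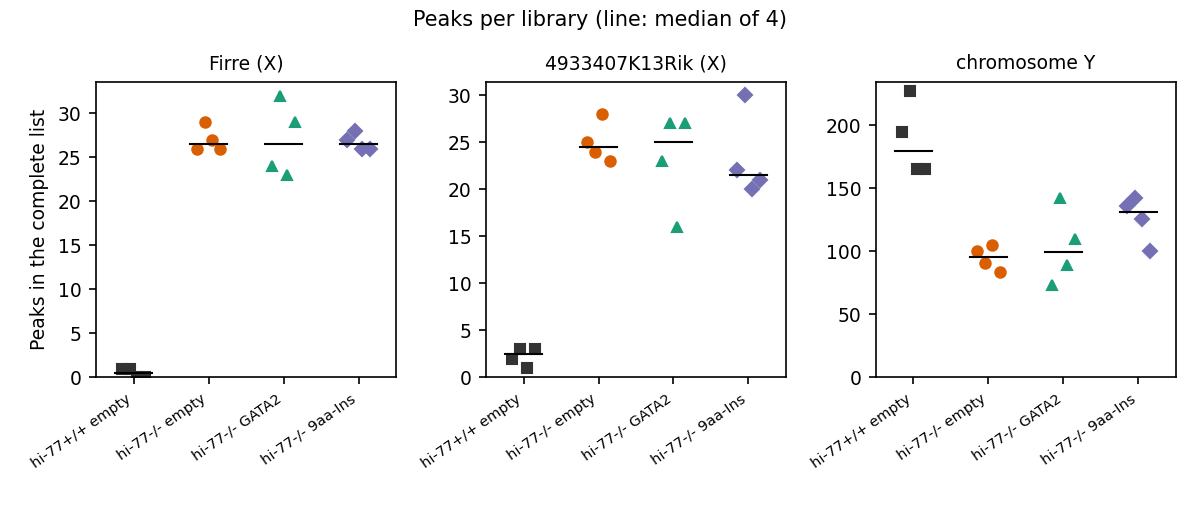
Peaks in the complete list of each library (vertical axes, starting at 0) in Firre, in 4933407K13Rik and on chromosome Y, by group (horizontal axis), with lines at the median of 4 libraries. The 4 hi-77+/+ libraries hold at most 1 peak in Firre and 3 in 4933407K13Rik but at least 165 on chromosome Y, and no hi-77-/- library exceeds 142 there.

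Chromosome 8 stood apart in the opposite direction. It held 140 lost regions, 2.70% of its 5190 regions against 1.01% of all, and 17 gained regions, 0.328% against 0.837%. Chromosome 19 held 54 lost (1.60%) and 14 gained regions (0.414%). On chromosome 11 the lost share was the lowest of the 20, at 0.517% (37 of 7159).

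**Figure D3:**
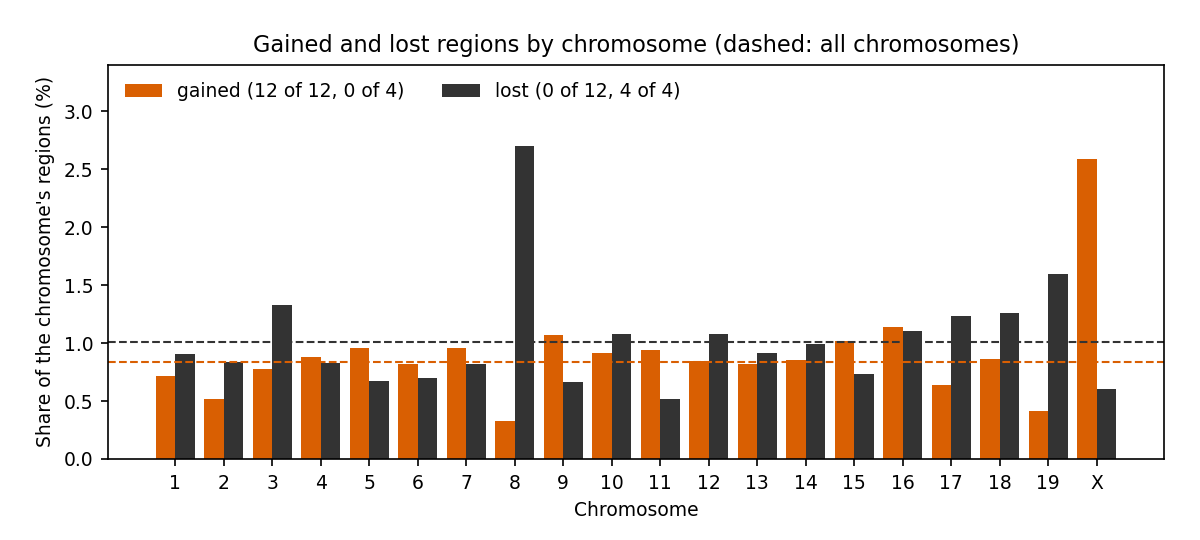
Share of each chromosome's merged regions that were gained (orange) or lost (black), with dashed lines at 0.837% and 1.01% for all chromosomes. Lost regions peak on chromosome 8 at 2.70%, and gained regions on X at 2.59%.

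To ask whether whole chromosomes differed, the level of each chromosome was taken at the 21231 regions with a peak in all 16 libraries, a set that does not use the groups. The level is the median log2 fold enrichment of its regions, centred on each region's mean over libraries and on the median of the library. Chromosome 8 stood at 0.19 to 0.23 in the 4 hi-77+/+ libraries and at -0.10 to -0.05 in the 12 hi-77-/- libraries. Its regions were therefore lower throughout the hi-77-/- set, with a difference of -0.29, or 1.22-fold in favor of hi-77+/+ (exact permutation test, adjusted p = 0.0011 over 20 chromosomes). Chromosome 19 followed, at 0.09 to 0.14 against -0.09 to 0.00, with a difference of -0.15 (exact permutation test, adjusted p = 0.0011). Chromosome 11 went the other way, at -0.12 to -0.08 against 0.02 to 0.05, with a difference of 0.14 (exact permutation test, adjusted p = 0.0011). These 3 are the chromosomes that passed with a difference of at least 0.1. No hi-77-/- library overlapped the range of the hi-77+/+ libraries on them. The same held at smaller differences for chromosomes 3, 4, 5, 9, 12, 15, 16 and 17.

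The other 17 chromosomes differed by at most 0.097, the value of chromosome 15, although 14 of the 20 passed the adjusted threshold, 9 higher and 5 lower in hi-77-/- libraries. Chromosome 15 thus lay close to the cut, and chromosome 11 stood at 0.0998 in regions over 3 kb from a start site. The shift of chromosomes 8, 11 and 19 was present with each vector. Chromosome 8 averaged -0.06 in hi-77-/- empty, -0.08 in GATA2 and -0.07 in 9aa-Ins, against 0.21 in hi-77+/+ empty. Among the 9 comparisons between vector groups on chromosomes 8, 11 and 19, the smallest adjusted p was 0.0857, and 4 against 4 libraries allow no unadjusted p under 0.0286. A difference between vectors on these chromosomes was therefore not shown, nor was its absence.

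Bins of 10 Mb with at least 20 shared regions showed how far the shift ran along a chromosome. Bins with fewer were left out, among them 50 to 60 Mb of chromosome 8. All 12 remaining bins of chromosome 8 were lower in hi-77-/- libraries, by -0.39 to -0.19, and in all 12 the groups did not overlap. All 7 bins of chromosome 19 were lower, by -0.18 to -0.09, again without overlap. On chromosome 11, 8 of 13 bins were higher without overlap, by 0.11 to 0.24, and they were all bins from 50 Mb to its end. The 5 bins from 0 to 50 Mb overlapped, with differences of -0.053 to -5.5e-05. The X chromosome had no bin without overlap among 11. Every other autosome also had bins without overlap. Chromosome 3 had 7 of 15, all lower, and chromosome 15 had 6 of 10, all higher. On chromosome 13, 3 bins were lower and 3 higher, of 12. The largest difference of all bins was -0.72, on chromosome 5 between 10 and 20 Mb. Others were 0.38 on chromosome 15 between 60 and 70 Mb and -0.37 on chromosome 10 between 100 and 110 Mb. Lack of overlap in a bin was therefore not particular to chromosomes 8, 11 and 19. The files hold peaks and no DNA copy number, so whether the lines carry different numbers of these chromosomes was not tested, and changed regions on chromosomes 8, 11, 19 and X cannot be told apart from a difference in chromosome dose. Without these 4 chromosomes, 615 gained and 674 lost regions remained, a setting chosen after seeing the data. Without all 14 chromosomes that passed, 211 gained and 200 lost regions remained.

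**Figure D4:**
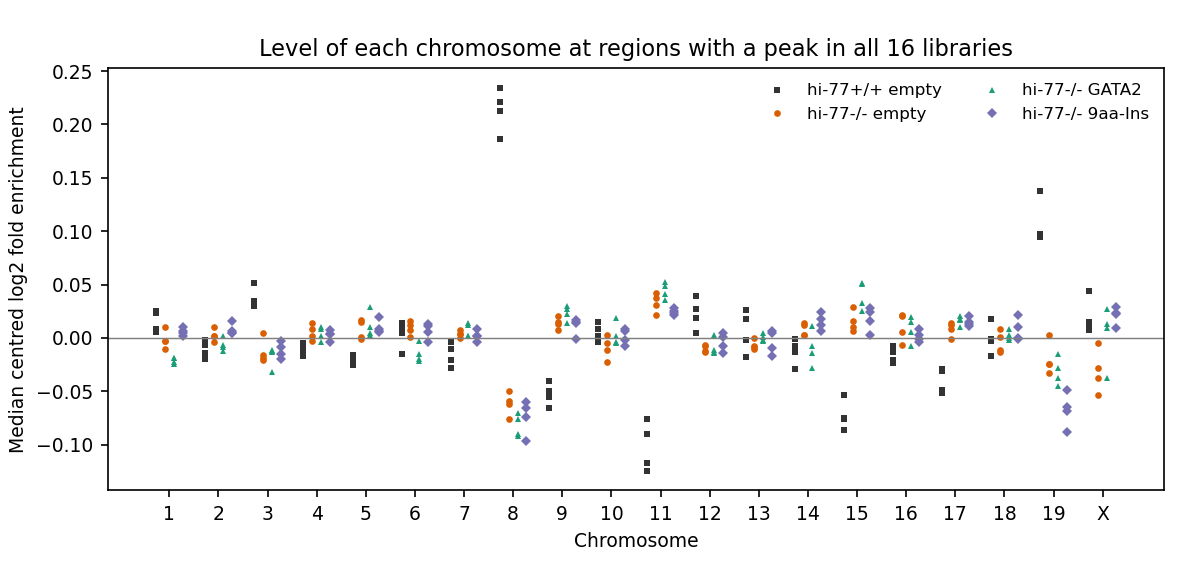
Level of each chromosome (median centred log2 fold enrichment over the 21231 shared regions) in each of the 16 libraries, by group. On chromosome 8 the hi-77+/+ libraries lie between 0.19 and 0.23 and all others below 0, and on chromosome 11 the order is reversed.

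Gained and lost regions differed in kind. Gained regions had a median width of 564.5 bp, against 220 bp for lost regions and 272 bp for all. Promoters, within 3 kb of a protein-coding start, made up 18.9% of gained, 34.0% of lost and 31.6% of all regions. Intergenic positions made up 47.6%, 29.5% and 36.6%. Width was not independent of the rule, since a gained region merges peaks of at least 12 libraries and a lost region can merge peaks of 4.

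Transcription factor words were counted as exact matches on both strands within 100 bases of each summit, so sites that depart from a word were missed. The ETS word AGGAAG, which is read by PU.1 and other ETS factors of myeloid and lymphoid cells, was in 52.2% of gained, 24.7% of lost and 39.1% of all regions. The RUNX word TGTGGT was in 35.1%, 19.8% and 24.7%. The C/EBP word, TTGC and AA parted by any 2 bases, of the factors that drive granulocyte and monocyte genes, was in 14.7%, 5.90% and 11.3%. GATA words, in which GATA follows A or T and precedes A or G, were in 31.5%, 21.5% and 26.5%. The CTCF consensus went the other way, with 3 gained regions (0.397%), 69 lost regions (7.54%) and 5.80% of all. Of the 3 gained regions with it, 1 is the Xist region, and the region nearest Adgrd1 shown above is among the 69 lost ones, with a fold of 11.7 to 15.5 in hi-77+/+ libraries.

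Over whole libraries the same words were counted among all 49000 peaks, so that each library gave 1 value. ETS words were in 33.5% to 35.8% of peaks in hi-77+/+ libraries and in 37.3% to 43.5% in hi-77-/- libraries. The means were 34.7% ± 0.946 (SD, n = 4) and 40.7% ± 2.34 (SD, n = 12), and the groups did not overlap (exact permutation test, adjusted p = 0.00183 over 10 shares). RUNX words rose from 20.6% to 23.7% and the CTCF consensus fell from 7.21% to 5.45%, each with an adjusted p of 0.00183 by the exact permutation test. IRF words, GAAA repeated after any 2 bases (2.06% against 1.84%, exact permutation adjusted p = 0.0137) and C/EBP words (11.2% against 9.13%, 0.0275) were also higher on average in hi-77-/- libraries. The remaining 5 shares did not pass, namely GATA (22.7% against 21.0%, exact permutation adjusted p = 0.5), AP-1 (TGANTCA), EBF1 (TCCC and GGGA parted by any 2 bases), a composite of the E-box CANNTG and GATA 6 to 14 bases on, and promoters (41.5% against 43.3%, adjusted p = 0.140). Among gained, lost and all regions, the AP-1 word was in 12.2%, 9.84% and 11.2%, the EBF1 word in 1.98%, 0.546% and 1.46%, and the composite in 2.65%, 1.53% and 2.05%. The IRF word was in 1.59%, 1.64% and 2.10%, so gained regions did not hold it more often than all regions although its share over whole libraries was higher in hi-77-/- libraries.

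The vector groups did not sit together in every share. ETS words averaged 41.3% in hi-77-/- empty, 37.7% in GATA2 and 42.9% in 9aa-Ins, so that the GATA2 libraries lay between the other hi-77-/- libraries and hi-77+/+ empty without reaching them. GATA words were at 26.96% in GATA2 against 20.3% in hi-77-/- empty. EBF1 words were at 2.01% in hi-77-/- empty, 1.71% in 9aa-Ins and 1.04% in GATA2, against 1.15% in hi-77+/+ empty. With hi-77-/- empty alone against hi-77+/+ empty, the EBF1 share passed (difference 0.87 points, exact permutation test, adjusted p = 0.0357). In 10 comparisons of GATA2 or 9aa-Ins with hi-77-/- empty over the 5 shares that passed, no adjusted p was under 0.0571 (exact permutation test). The test's smallest unadjusted p, 0.0286, was reached by ETS words with both vectors, RUNX and C/EBP words with 9aa-Ins, and IRF words with GATA2. In those comparisons the groups did not overlap. A difference between vectors was therefore not shown past adjustment, nor was its absence. GATA and EBF1 words were not among the 10 comparisons. The CTCF share was 5.61% in hi-77-/- empty, 5.62% in GATA2 and 5.13% in 9aa-Ins.

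**Figure D5:**
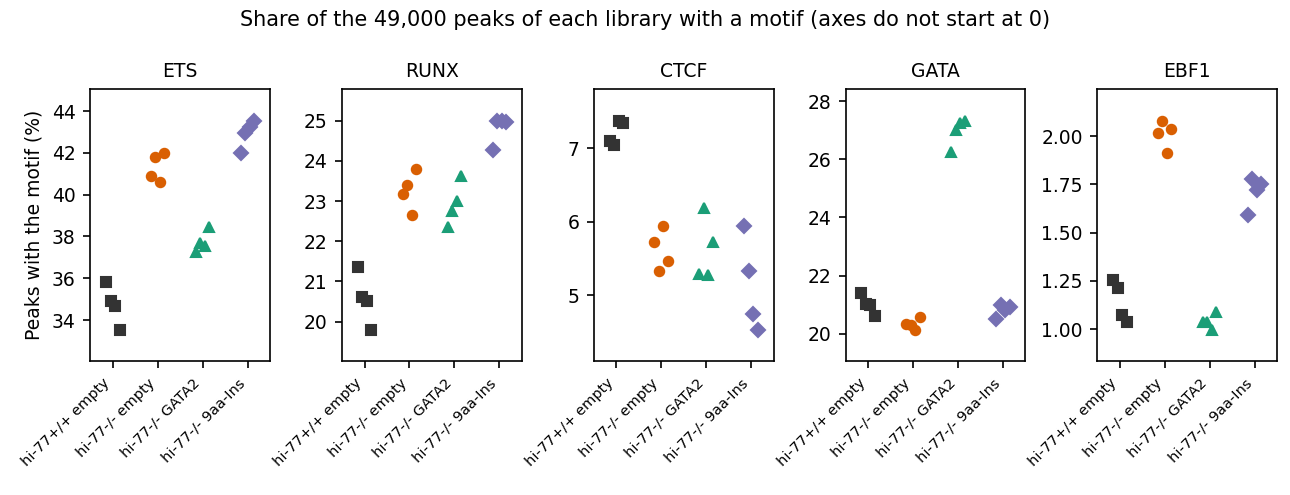
Share of the 49000 peaks of each library with an ETS, RUNX, CTCF, GATA or EBF1 motif (vertical axes in percent, not starting at 0), by group. For ETS, RUNX and CTCF all 12 hi-77-/- libraries lie on 1 side of the 4 hi-77+/+ libraries, whereas for GATA and EBF1 they do not.

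Regions were next assigned to the protein-coding gene with the nearest start. The 12 gained regions of best median rank, 1 per nearest gene, included the Ftx region and a Firre region described above. The strongest lay at the promoter of Cstf2t, an intronless copy of a polyadenylation factor gene inside an intron of Prkg1 (chr19:31082383-31083375). Its fold was 23.8 to 45.6 (median 33.3) in the 12 hi-77-/- libraries, and no complete hi-77+/+ list had a peak there. Chromosome 19 as a whole was lower in hi-77-/- libraries, opposite to this region. The promoter of Tmprss2, a membrane serine protease, reached 19.04 to 44.9 (median 34.6), with peaks too weak for the 49000 in 3 of 4 hi-77+/+ libraries. The promoter of Wfs1, an endoplasmic reticulum protein, stood at 17.5 to 40.4 (median 27.9), and a region in an intron of Gipc1, a PDZ adaptor, at 12.2 to 38.2 (median 30.3).

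The intergenic region nearest Map3k1, a kinase of the MAP kinase cascade, lay 192 kb upstream of it and held the RUNX words shown above. Its fold was 8.46 to 34.8 (median 31.5), with means of 31.3 in hi-77-/- empty, 12.9 in GATA2 and 33.6 in 9aa-Ins. Other leading regions were an intron of Ext1, a heparan sulfate synthase (8.99 to 38.2), an intron of Acoxl nearest Bcl2l11, which encodes the cell death factor BIM (18.99 to 35.3), and the promoter of Prelid2 (14.8 to 29.0). The region inside Pax7, nearest Tas1r2, had means of 30.7 in hi-77-/- empty, 6.66 in GATA2 and 32.8 in 9aa-Ins, and no peak in any complete hi-77+/+ list. Its presence in all 12 libraries thus covered a much lower fold with GATA2.

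Innate immune and inflammasome genes included 2 of 37 with a gained region, the promoters of Aim2 and Nlrp3, and 0 with a lost one, or 2 of 147 regions. Aim2 encodes a cytosolic DNA sensor, and its promoter (chr1:173420272-173420752) had a fold of 14.8 to 37.8 (median 28.3), with a peak in 1 of 4 complete hi-77+/+ lists. Nlrp3 encodes the sensor of another inflammasome, and its promoter stood at 6.12 to 22.1 (median 12.3), with a peak in 3 of 4 complete hi-77+/+ lists. Across all 16895 genes with a region, 560 (3.31%) had a gained and 789 (4.67%) a lost region, against 5.41% and 0 of this list.

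Cytokine receptors and their signaling genes had 5 of 39 members with a gained region (12.8%) and 0 with a lost one, which was 7 of their 342 regions. Tgfbr2, the signaling receptor for TGF-beta, had 2 such regions within 100 kb, at 10.4 to 25.3 (median 19.6) and 5.51 to 17.9 (median 13.5). A further 2 regions, 163 and 236 kb upstream of it, were also gained, and the nearer is the one whose GATA and ETS words are shown above. Stat5b, which relays signals from many cytokine receptors, had 2 gained regions in an intron (medians 11.5 and 9.42). Il1r1 and its decoy Il1r2 had 1 each (9.34 in an intron, 10.9 at the promoter), and Socs1, an inhibitor of cytokine signaling, had 1 (8.16). All were weaker than the leading regions, and each had a peak in 2 to 4 complete hi-77+/+ lists.

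B-lineage genes had 3 of 22 members with a gained region (13.6%), or 3 of 153 regions, and 0 lost. They were the promoter of Igll1, which encodes part of the surrogate light chain of the pre-B receptor, an intron of Ebf1, a B-lineage transcription factor, and a region upstream of Bank1, a B cell scaffold. Igll1 stood at 4.90 to 24.5 (median 19.97), and its means were 20.4 in hi-77-/- empty, 7.27 in GATA2 and 22.5 in 9aa-Ins. Ebf1 showed the same order, with 12.9, 7.80 and 16.4, whereas Bank1 did not, with 7.74, 10.1 and 15.9. Fold enrichments depend on the depth of a library, and the median over all 756 gained regions was itself 6.88 to 10.2 in GATA2 libraries, 10.2 to 11.4 in hi-77-/- empty and 14.6 to 16.6 in 9aa-Ins.

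Stem and progenitor transcription factors had 2 of 23 members with a gained region, Gata2 and Erg, which was 2 of their 370 regions. Myeloid transcription factors had 2 of 23, among them Id2, or 2 of 227 regions. Per region these shares lay near or below the 0.837% of all regions, whereas per gene they lay above the 3.31% of all genes. The Gata2 region (chr6:88204491-88205524) overlaps coding sequence, and its fold was 5.82 to 23.3 (median 10.1). It had a peak in 1 of 4 complete hi-77+/+ lists, and hi-77-/- empty libraries, whose vector holds no Gata2 cDNA, averaged 8.48 there. The averages of 8.64 in GATA2 and 19.2 in 9aa-Ins cannot be told apart from reads of the murine cDNA in those vectors. Id2, an inhibitor of helix-loop-helix factors, had a stronger region than Gata2 or Erg, 22.4 kb upstream with the ETS words shown above and a fold of 6.12 to 31.7 (median 23.6). Erg had a promoter region with a median fold of 8.08. The Id2 and Erg regions each had a peak in 4 of 4 complete hi-77+/+ lists, too weak for the 49000.

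Of the other lists, 1 of 20 mast cell and basophil genes (Srgn), 1 of 23 erythroid and megakaryocyte genes (Tfrc), 1 of 21 neutrophil genes (Itgam) and 1 of 17 imprinted genes (Peg3) had a gained region. None did among 20 antigen presentation genes, 32 tumor suppressor and cell cycle genes, 20 histone and chromatin genes, and 30 genes of receptor clusters that vary between mouse strains. Of 17 X inactivation and Y-linked genes, 5 had a region, and neither a gained nor a lost region was assigned to them. Regions were assigned only to protein-coding genes, and chromosome Y was not used for calling. Noncoding genes such as Xist and Ftx and the Y-linked genes could therefore receive no region. This list thus does not bear on the gained regions in Xist, Tsix and Ftx described above. Among 27 neighbors of the deleted enhancer on chromosome 6, Gata2 alone had a gained region (3.70%, against 3.31% of all genes).

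Several genes had clusters of gained regions. Tnfaip3, which encodes the NF-kappaB inhibitor A20, had 4 of its 18 regions gained, and Cd180, a Toll-like receptor homolog, 4 of 9. Pag1, a membrane adaptor of Src family kinases, had 4 of 21, Sash1, a signaling scaffold, 4 of 23, and Nedd4l, a ubiquitin ligase, 4 of 21. Lrrk2, a kinase, had 3 of 10, and Thrb, a thyroid hormone receptor, 3 of 19. Thrb also had 1 lost region. The 4 Sash1 regions and the 3 Lrrk2 regions had no peak in any complete hi-77+/+ list. Sash1 also lay in a run of 21 neighboring regions with a peak in at least 1 hi-77-/- library and in no hi-77+/+ library, 5 to 15 of them per hi-77-/- library. The longest such run, 31 regions over 968 kb at Auts2, a neurodevelopmental gene, held 1 gained region, and single hi-77-/- libraries had 4 to 16 of them.

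Away from X, the window of 1 Mb with the most gained regions was on chromosome 5 between 75 and 76 Mb. It holds the receptor tyrosine kinase genes Kit and Kdr, and 6 of its 60 regions were gained (10.0%). They lay 44.7 to 187 kb from the start of Kit, Kdr or Pdgfra, with median folds of 9.10 to 12.3. Windows with 5 gained regions followed, at Tgfbr2 and Rbms3 on chromosome 9 (5 of 37), at Sash1 and Tab2 on chromosome 10 (5 of 55), and at Abca1 on chromosome 4 (5 of 76).

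Lost regions ranked lower, with a median rank of 31969 against 23228 for gained regions. Their median fold was 8.20, against 11.2 for gained regions, and the best median rank was 4759 against 2755. Neither rank nor fold was independent of the rule, since a gained region had to be among the 49000 peaks of 12 libraries and a lost region of 4. The leading lost region was the promoter of Bag3, a cochaperone of HSP70 (chr7:128523359-128524512), with a fold of 21.5 to 25.8 (median 23.5) in the 4 hi-77+/+ libraries and a peak in 6 of 12 complete hi-77-/- lists. Of the 12 leading lost regions, 5 lay on chromosome 8, at Snapc2, Mboat4, Cers4, Mt3 and Dhx38. Mt3, a metallothionein, had a promoter peak at 14.7 to 18.4 in hi-77+/+ libraries and none in any complete hi-77-/- list. The same held off chromosome 8 for the promoter of Pir, an iron-binding nuclear protein on X (15.8 to 18.7), and for a region upstream of Pdxk, a vitamin B6 kinase (13.4 to 18.4). Others were the promoters of Fam129a and of Gramd1b, which also had 2 gained regions in introns, an intron of Rbm20, a splicing regulator on chromosome 19, and a region upstream of Zmiz1, a transcriptional coactivator.

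Among genes with several lost regions, Tiam1, an activator of Rac, had the most, 4 of its 63 regions. Dusp4, a MAP kinase phosphatase, had 3 of 14, and Igf1r, a growth factor receptor, 3 of 16. Nfatc2, a calcium-responsive transcription factor, had 3 of 11, Alkbh1 3 of 11 and Vmn1r234 3 of 12. Dusp4 lies on chromosome 8. Of the 3 Nfatc2 regions, 1 had no peak in any complete hi-77-/- list, with a fold of 9.37 to 17.7 in hi-77+/+ libraries. Among the 5 windows with the most lost regions, 7 each, 3 were on chromosome 8 and the other 2 were adjacent on chromosome 19, with Neat1 in the second. On chromosome 8 they were 7 of 61 (11.5%), 7 of 100 (7%) and 7 of 175 regions (4%), against 2.70% of the whole chromosome. On chromosome 19 they were 7 of 157 (4.46%) and 7 of 199 (3.52%), against 1.60%. Neat1, a nuclear noncoding RNA, also carried the longest run of regions with a peak only in hi-77+/+ libraries, 11 regions over 8.89 kb, of which a given library had 4 to 9.

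In the gene lists, lost regions are set beside the 4.67% of all genes and 1.01% of all regions. Erythroid and megakaryocyte genes had 2 of 23 members (8.70%), or 2 of 129 regions, among them Ank1, which anchors the erythrocyte skeleton (fold 7.35 to 9.37). Ank1 lies on chromosome 8, as do both lost regions of Hmgb2, a chromatin protein. Elsewhere, Mdm2 and Dnmt3a of the tumor suppressor and cell cycle genes, H2afz of the histone genes, Padi4 of the neutrophil genes and the Airn region nearest Igf2r of the imprinted genes had 1 each. Shares of genes were 6.25% for the tumor suppressor list, 10% for the histone list with Hmgb2, 4.76% for the neutrophil and 5.88% for the imprinted list. Each share rests on 1 or 2 genes and was not tested. None was found in stem, myeloid, B-lineage, cytokine, innate immune, mast cell or antigen presentation lists, nor among strain-variable receptors or the neighbors of the deleted enhancer.

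The ranks of the 756 gained regions are described by vector without a test, because membership required a rank within 49000 in every GATA2 and 9aa-Ins library, so that regions weakened past it by either vector were left out. The median rank of the gained regions was 22393 to 24057 in hi-77-/- empty, 23644 to 27479 in GATA2 and 20169 to 22474 in 9aa-Ins. Against hi-77-/- empty the difference of the means was 1480 ranks for GATA2 and -2433 ranks for 9aa-Ins. Without GATA2 replicate 1, whose list was shortest, the other GATA2 libraries lay at 23644 to 23907, within the range of hi-77-/- empty.

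Region by region, 135 gained regions (17.9%) ranked lower in all 4 GATA2 libraries than in all 4 hi-77-/- empty libraries, against 11.1% of the 25300 regions with a peak in all 8. In the other direction there were 85 (11.2%, against 9.32%). With 9aa-Ins 40 gained regions ranked lower (5.29%, against 6% of 29901 regions) and 134 higher (17.7%, against 7.97%). Since ranks helped to choose the gained regions, nothing is read from these shares.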

How the data were processed

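ATAC-Seq was measured in 16 mouse libraries, grouped by the genotype and vector in the labels. Per the labels and the methods, the authors trimmed reads with Trim Galore 0.4.1, aligned them to GRCm38 (mm10) with Bowtie2 2.2.5, removed duplicates with Picard 2.26.0 and called peaks per library with MACS2 without local background. Each deposited list gives a score derived from q, a fold enrichment, −log10 p, −log10 q and a summit offset. No read counts were used, so depth is unknown and read-based tests were not run.

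The 49000 peaks of highest −log10 p (ties by fold, then position) were kept per library, and peaks that overlapped by 1 bp were merged. Gained and lost regions were chosen by presence and were not tested. Levels and shares with 1 value per library were compared by two-sided exact permutation tests (Python 3.11.15, numpy 2.4.6, pandas 2.3.3) with Benjamini-Hochberg adjustment, and the calls were run on simulated data. The simulated regions were wholly absent from the other genotype at equal depth, so weak peaks and uneven lists were not covered. P-values measure the spread between libraries of 1 line per genotype. Genes came from GENCODE M21 and sequences from RefSeq GRCm38. A gene took the regions nearest its start within 100 kb. Named were the 12 best-ranked gained and 12 lost regions, list members with most changed regions, the genes and 1 Mb windows with most, the longest runs and the chromosomes past the threshold. Members and lists were chosen with earlier results of these data known. Alternatives are given in the closing section. Some list members are not reported here.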

Additional observations from a re-analysis of the deposited data

Results flagged for a closer look

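Each value with 1 number per library was examined for a library far from the other 3 of its group, in 79 sets of 4. A library was taken as far when its gap to the nearest other, divided by the range of its group, exceeded Dixon's critical value for 4 samples, and chance gives about 1 in 20 such sets. There were 5. The level of chromosome 19 was 0.14 in hi-77+/+ empty replicate 3, against 0.09 to 0.10 in the other 3. The share of peaks with a RUNX word was 24.3% in 9aa-Ins replicate 1, against 24.96% to 25.01% in the others. The share with an AP-1 word was 10.1% in hi-77-/- empty replicate 4, against 9.80% to 9.82%. The median rank of the gained regions was 27479 in GATA2 replicate 1, against 23644 to 23907, and 22474 in 9aa-Ins replicate 1, against 20169 to 20277.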

How the results depend on the processing

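The number of regions was sensitive to how a peak was counted. Gained and lost regions numbered 491 gained with a shorter list of the most significant peaks, 340 gained with all deposited peaks, 472 gained with all peaks of −log10 q of at least 5, 213 gained where peaks had to cover 50% of the region, 185 gained and 155 lost with absence from the complete lists, 2399 gained without the GATA2 libraries, and 211 gained and 200 lost without the 14 chromosomes whose level differed. The cause was not tested beyond the smaller number of chromosomes or libraries. The other alternatives stayed within 1.5 times. Leaving out each library in turn gave 759 to 965 gained and 929 to 1262 lost regions. The number of chromosomes past the adjusted threshold was 7 by share of peaks and 13 to 16 without each library, and chromosomes 8, 11 and 19 passed in the same direction under every alternative. Chromosome X turned to 0.28 percentage points by share of peaks (adjusted p = 0.00366, exact permutation test) and to 0.0327 on the log2 scale (adjusted p = 0.475) away from start sites. Of 10 shares, 8 passed with the shorter list and 8 with hi-77-/- empty alone against hi-77+/+ empty, and 5 passed without each library. With hi-77-/- empty alone, GATA words differed by -0.67 points (exact permutation test, adjusted p = 0.0357) and AP-1 words by -0.14 (adjusted p = 0.457). Libraries of the same number did not pair, with r over 0.1 in 1 of 24 pairs. With the replicate block, the C/EBP share no longer passed (exact permutation test, adjusted p = 0.0625), 4 shares and 12 chromosomes passed, and chromosomes 8, 11 and 19 were among them. In settings added after seeing the data, 728 gained regions were left without Firre and 4933407K13Rik, and without chromosomes 8, 11, 19 and X, 615 gained and 674 lost. Depth is unknown, which limits all statements on absence.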
